A study of Mus musculus with 23 samples.

Results

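The 10 genes described here are Vegfa, Adm, Egln3, Car9, Slc2a1, Pdk1, Bnip3, Ndrg1, Ankrd37 and Hif1a, a set of hypoxia target genes named around Vegfa together with the gene of the oxygen-regulated factor itself. All 10 were found by symbol among the 27466 genes of the count table, and all 10 passed the filter on low counts, which kept 19255 genes. In RefSeq's annotation of GRCm38.p6 the genes lie on several chromosomes: Vegfa at chr17:46016993-46032377, Slc2a1 at chr4:119108745-119137330, Car9 at chr4:43507026-43513729, Bnip3 at chr7:138890836-138909506, Ndrg1 at chr15:66929318-66969641, Egln3 at chr12:54178981-54203874, Ankrd37 at chr8:45996908-46000414, Adm at chr7:110627657-110629820, Pdk1 at chr2:71873215-71903858 and Hif1a at chr12:73901324-73947554. The libraries were poly(A) RNA-Seq of wild-type CD-1 mouse testis, a tissue of germ and somatic cells. The in vivo groups were testes at 6.5 days postpartum (dpp), fresh or after controlled slow freezing (CSF), and older fresh testes, of 10.5, of 22.5 and of 36.5 dpp. The in vitro groups were fragments of 6.5 dpp testes kept in α-MEM with KnockOut serum replacement and retinol for 4 (D4), 16 (D16) or 30 days (D30), from fresh tissue, with 1 further D30 library from slow frozen tissue. Explants were pooled for each cultured library and their necrotic centre was removed before RNA extraction, so cells from the centre are not in these values, and the oxygen level of the incubator is not given in the sources used here. The libraries compared numbered 3 for D4 and for each of 10.5 and 22.5 dpp, and 2 for D16 and for 36.5 dpp. D30 had 4, of which 1 was slow frozen, and 6.5 dpp also had 4, of which 3 were. In age D4 matches 10.5 dpp, D16 matches 22.5 dpp and D30 matches 36.5 dpp. The question put to these genes was how their RNA levels in culture compare with the testis of the matching age and how they run over time in each setting.

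Cells sense oxygen through the hypoxia-inducible factors (HIF), dimers of an oxygen-labile alpha subunit such as HIF1A and a stable beta subunit, ARNT. When oxygen is plentiful, prolyl hydroxylases of the EGLN family mark the alpha subunit, VHL binds it, and it is destroyed. When oxygen is scarce the alpha subunit persists, and the dimer binds short motifs near genes of vessel growth, glucose uptake, glycolysis and mitochondrial turnover. This control acts on the HIF1A protein, which RNA-Seq does not measure. In the testis the blood vessels run between the tubules, and an explant has no blood flow.

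The comparisons used 21 of 23 libraries, with totals of 28351546 to 69029328 counts. The column of 6.5 dpp fresh replicate 3 was identical to that of replicate 2, and the pair was counted as 1 library. Replicate 1 of the fresh 6.5 dpp testis was left out: across genes its counts were most like those of D16 replicate 1 (Spearman rho 0.985). CSF replicate 3 at 6.5 dpp also stood apart, with a median rho of 0.964 to the other 3 libraries of its group, which had 0.984. Replicates are separate libraries, and where nothing says they came from separate animals the p-values measure only the spread between these libraries.

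The start regions of these genes were searched for the core letters of the HIF motif, ACGTG and GCGTG, on both strands. RefSeq windows from 250 bases before to 50 bases after a start (GRCm38.p6) were found for 9 of the 10 genes, all but Ndrg1, and came to 11 windows because Vegfa and Pdk1 each had a pair of starts. A match stood in 9 of the 11 windows, where 43.8% of the 32851 windows of the whole table held one. At least 1 window of each of the 9 genes held a match, as for 46.7% of the genes with windows. The 250 bases before the start are shown for Adm, Vegfa and Egln3, the members with the greatest difference at D4, and for Bnip3, which had the most matches and was not called at D4. Matches are in capitals, and the letters run 5′ to 3′ on the strand of the gene. The window of Vegfa lies at chr17:46032378-46032627 (minus strand), that of Adm at chr7:110627407-110627656 (plus strand), that of Egln3 at chr12:54203875-54204124 (minus strand) and that of Bnip3 at chr7:138909507-138909756 (minus strand).
Vegfa: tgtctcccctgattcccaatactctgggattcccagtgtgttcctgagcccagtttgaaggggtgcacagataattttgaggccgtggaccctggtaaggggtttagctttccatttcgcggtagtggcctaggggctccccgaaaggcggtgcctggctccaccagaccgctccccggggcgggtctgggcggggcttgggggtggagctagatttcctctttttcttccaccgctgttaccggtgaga
Adm: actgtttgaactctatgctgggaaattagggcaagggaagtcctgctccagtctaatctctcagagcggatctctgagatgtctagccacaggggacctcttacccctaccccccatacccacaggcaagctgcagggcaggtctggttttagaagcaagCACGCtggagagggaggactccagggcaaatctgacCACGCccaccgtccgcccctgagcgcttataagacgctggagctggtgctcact
Egln3: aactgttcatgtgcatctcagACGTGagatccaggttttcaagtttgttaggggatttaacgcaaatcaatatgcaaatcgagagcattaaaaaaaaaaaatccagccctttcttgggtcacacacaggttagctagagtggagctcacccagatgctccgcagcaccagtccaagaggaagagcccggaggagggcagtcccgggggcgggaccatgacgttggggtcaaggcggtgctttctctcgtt
Bnip3: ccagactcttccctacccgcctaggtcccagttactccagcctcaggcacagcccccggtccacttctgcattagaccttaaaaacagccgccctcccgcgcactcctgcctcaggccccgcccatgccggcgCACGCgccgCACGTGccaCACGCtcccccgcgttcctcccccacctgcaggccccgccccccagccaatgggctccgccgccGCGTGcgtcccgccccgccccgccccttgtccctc
No match stood in this Vegfa window, 2 stood before Adm, 1 before Egln3 and 5 before Bnip3, of which 2 overlapped as the same letters read on either strand. The other Vegfa window, inside the gene, held 2, and 67 of its 250 bases are annotated as coding. Ankrd37 had 4, Hif1a 3, Slc2a1 2, Car9 1, and the upstream window of Pdk1 2. The windows of Ankrd37 and Hif1a also lay within the spans given for these genes. These letters describe the windows and say nothing of sites farther away.

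Cultured explants held more RNA of most of these genes than testes of the same age. At D4, 7 members were higher than at 10.5 dpp and 0 lower (edgeR's quasi-likelihood test on counts with TMM scaling over all genes, Benjamini-Hochberg adjusted p under 0.05 over all genes tested), where 4.92% of all genes were called higher and 3.18% lower. At D16 all 10 were higher than at 22.5 dpp, beside 14% of all genes higher and 11.8% lower. When libraries were scaled on somatic genes, 5 kept that call. At D30, 9 were higher than at 36.5 dpp and Ankrd37 was not called, beside 32.4% higher and 35% lower, but 5 of the 9 (Slc2a1, Bnip3, Ndrg1, Pdk1 and Hif1a) had values below 0 when libraries were scaled on somatic genes, as given further on. The median log2 fold change of the members was 1.13, 1.69 and 2.24 at D4, D16 and D30, and that of all genes tested was -0.01, -0.09 and -0.03. Adm and Vegfa had the largest differences at D4 and D16. For every member the libraries of D4 lay above those of 10.5 dpp in CPM (counts per 1000000 counts of the library), as did those of D16 above 22.5 dpp, and at D30 this held for 9, with Ankrd37 overlapping. Of all genes tested, 17.3%, 29.2% and 47.6% had libraries so placed at D4, D16 and D30.

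**Figure D1:**
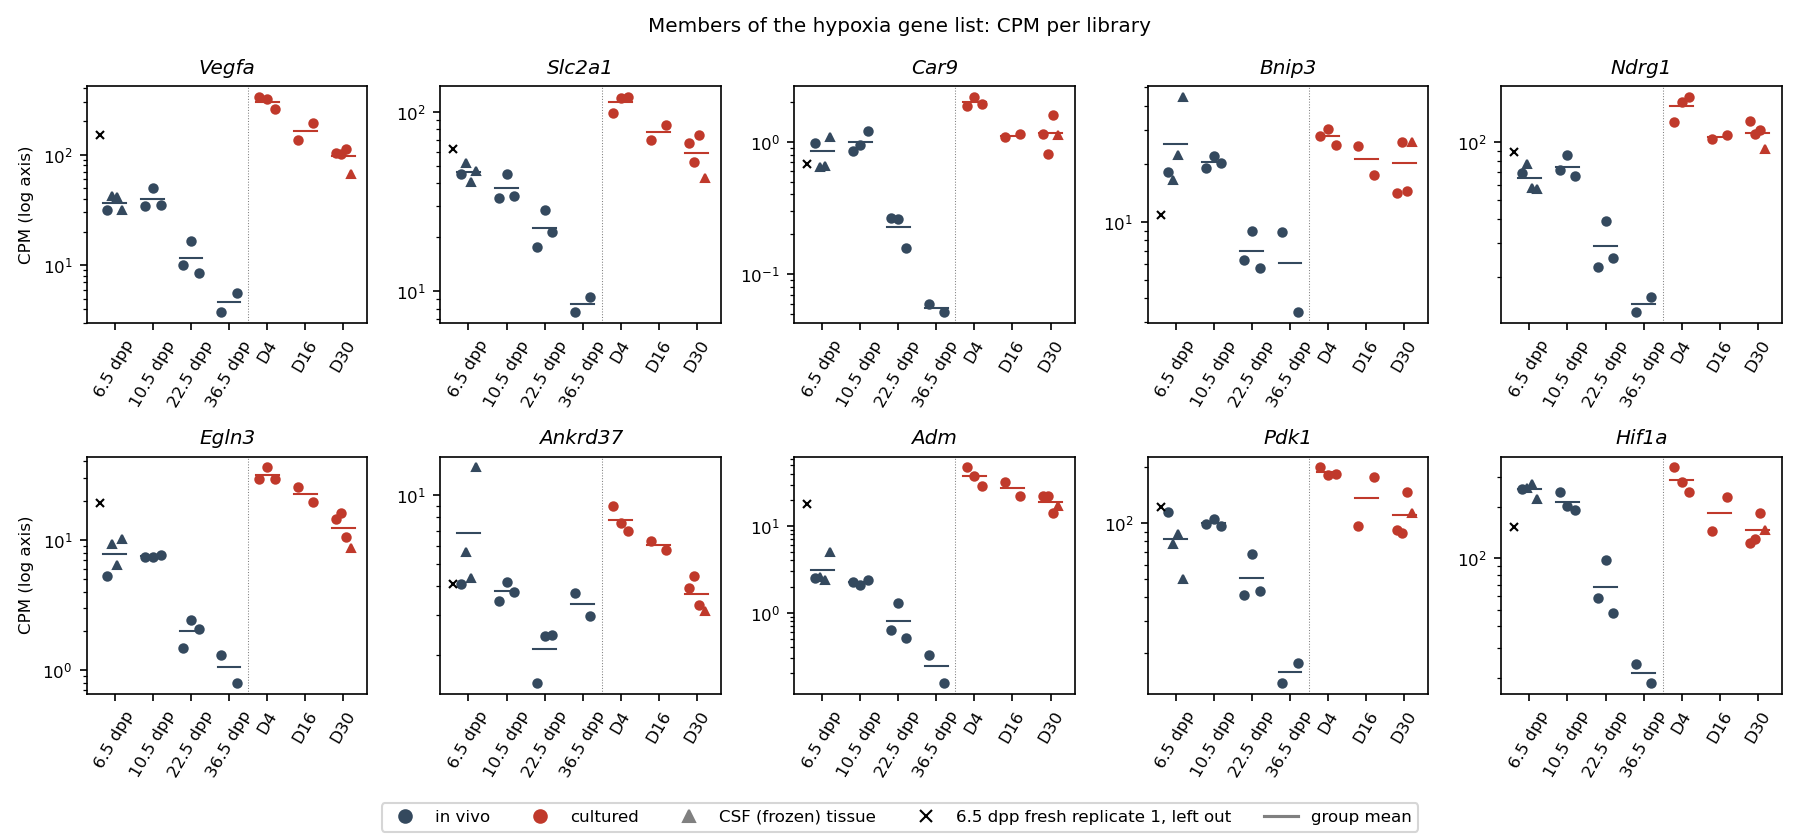
CPM (log axis) of each member in every library, with in vivo ages and cultured explants in separate colours, slow frozen tissue as triangles and a bar at the group mean. All cultured Vegfa libraries lie between 67.1 and 332.8 CPM, above each in vivo library used, and the left-out 6.5 dpp library (cross) lies at 151.3 CPM.

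Vegfa and Adm encode secreted signals. Vegfa, the growth factor that directs new vessels, had 34.4, 50.0 and 34.7 CPM at 10.5 dpp and 332.8, 314.7 and 256.5 CPM at D4, a log2 fold change of 3.01 ± 0.27 (adjusted p = 9.59e-07) or 8.07-fold. The D4 libraries of Vegfa were all far above those of 10.5 dpp. At D16 Vegfa had 135.2 and 191.2 CPM against 10.1, 16.4 and 8.47 CPM at 22.5 dpp, a log2 fold change of 3.67 ± 0.29 (adjusted p = 3.58e-07). At D30 it had 104.3, 102.0 and 111.9 CPM in fresh and 67.1 CPM in slow frozen tissue, against 3.74 and 5.58 CPM at 36.5 dpp, a log2 fold change of 3.73 ± 0.32 (adjusted p = 9.73e-08). In CPM both settings went down over time, from a mean of 301.3 ± 39.9 (SD, n = 3) at D4 to 96.3 ± 19.9 (n = 4) at D30 in culture and from 39.7 ± 8.89 (n = 3) to 4.66 ± 1.30 (n = 2) in vivo. Adm encodes adrenomedullin, a peptide that widens vessels, and was scarce in vivo, with 2.25, 2.09 and 2.36 CPM at 10.5 dpp against 47.5, 38.0 and 29.0 CPM at D4. The log2 fold change of 4.19 ± 0.40 (adjusted p = 1.98e-06), 18.2-fold, was the largest of the 10 members. At D16 Adm had 32.2 and 22.5 CPM against 0.634, 1.29 and 0.506 CPM at 22.5 dpp, a log2 fold change of 4.92 ± 0.43 (adjusted p = 1.1e-06). At D30 it had 22.0, 22.0 and 14.0 CPM in fresh and 16.8 CPM in slow frozen tissue, against 0.327 and 0.154 CPM at 36.5 dpp, a log2 fold change of 5.67 ± 0.54 (adjusted p = 2.49e-07). All in vivo libraries used lay below every cultured library of Adm. The 6.5 dpp library left out for its likeness to a cultured one had 17.9 CPM. That is above D30 fresh replicate 3 (14.0 CPM) and the D30 CSF library (16.8 CPM), so the separation partly follows from that choice.

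Egln3 and Car9 stand for feedback and acid handling. Egln3, a prolyl hydroxylase that HIF induces, had 7.45, 7.40 and 7.60 CPM at 10.5 dpp and 29.2, 36.1 and 29.4 CPM at D4, a log2 fold change of 2.16 ± 0.30 (adjusted p = 0.00013). The in vivo libraries were nearly equal, and each D4 library was well above them. At D16 Egln3 had 25.6 and 19.7 CPM against 1.48, 2.44 and 2.09 CPM at 22.5 dpp, a log2 fold change of 3.36 ± 0.34 (adjusted p = 3.69e-06). At D30 it had 14.4, 16.2 and 10.6 CPM in fresh and 8.59 CPM in slow frozen tissue, against 1.31 and 0.797 CPM at 36.5 dpp, a log2 fold change of 2.94 ± 0.37 (adjusted p = 3.92e-06). Car9 encodes a carbonic anhydrase of the cell surface and was scarce in every group. It had 0.853, 0.946 and 1.20 CPM at 10.5 dpp and 1.86, 2.18 and 1.94 CPM at D4, a log2 fold change of 1.08 ± 0.29 (adjusted p = 0.0253), and the call was lost without any 1 of these 6 libraries (adjusted p of 0.0509 to 0.123). At D16 Car9 had 1.08 and 1.14 CPM against 0.264, 0.263 and 0.158 CPM at 22.5 dpp, a log2 fold change of 2.10 ± 0.35 (adjusted p = 0.000521). At 36.5 dpp only 4 reads of Car9 were counted over both libraries, against 187 over the 4 libraries of D30 (0.811 to 1.59 CPM), a ratio of 21.15 with an exact 95% interval of 8.12 to 78.4 that covers counting error only (edgeR's adjusted p = 3.93e-06).

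Slc2a1 and Pdk1 act in glucose use. Slc2a1 encodes the glucose transporter GLUT1 and had 33.2, 45.2 and 34.0 CPM at 10.5 dpp and 98.7, 118.9 and 121.2 CPM at D4, a log2 fold change of 1.68 ± 0.21 (adjusted p = 4.48e-05). At D16 it had 69.8 and 84.6 CPM against 17.6, 28.5 and 21.4 CPM at 22.5 dpp, a log2 fold change of 1.63 ± 0.23 (adjusted p = 9.87e-05). In CPM the groups stood clear of each other both times, but on somatic scaling the D16 value was 0.50 (adjusted p = 0.0871) and was not called. At D30 Slc2a1 had 66.6, 52.6 and 74.4 CPM in fresh and 42.5 CPM in slow frozen tissue, against 7.60 and 9.28 CPM at 36.5 dpp, a log2 fold change of 2.16 ± 0.24 (adjusted p = 1.26e-06) that became -0.21 on somatic scaling. Pdk1 encodes a kinase that restrains the entry of pyruvate into mitochondrial oxidation. It had 99.6, 105.9 and 96.5 CPM at 10.5 dpp and 200.4, 182.8 and 183.7 CPM at D4, a log2 fold change of 1.00 ± 0.25 (adjusted p = 0.0191). That call was lost without D4 replicate 1 or any 1 of the 10.5 dpp libraries (adjusted p of 0.0536 to 0.0894). The D16 libraries of Pdk1 were apart, at 96.7 and 178.3 CPM, against 41.2, 68.7 and 43.3 CPM at 22.5 dpp, a log2 fold change of 1.28 ± 0.28 (adjusted p = 0.00398), and without D16 replicate 2 the value was 0.81 (adjusted p = 0.153). At D30 Pdk1 had 92.0, 89.3 and 148.4 CPM in fresh and 114.4 CPM in slow frozen tissue, against 13.9 and 17.7 CPM at 36.5 dpp, a log2 fold change of 2.16 ± 0.30 (adjusted p = 9.9e-06) that became -0.24 on somatic scaling.

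Bnip3, Ndrg1 and Ankrd37 are further known HIF targets. Bnip3, which marks mitochondria for removal, had 18.9, 21.9 and 20.3 CPM at 10.5 dpp and 27.9, 30.3 and 25.2 CPM at D4, a log2 fold change of 0.54 ± 0.39 (adjusted p = 0.551) that was not called although the libraries did not overlap. At D16 it had 24.7 and 17.5 CPM against 6.31, 8.97 and 5.75 CPM at 22.5 dpp, a log2 fold change of 1.45 ± 0.44 (adjusted p = 0.0231), and the call was lost without D16 replicate 1 or 2 or 22.5 dpp replicate 1 or 3 (adjusted p of 0.0615 to 0.106). At D30 Bnip3 had 14.1, 26.0 and 14.4 CPM in fresh and 26.0 CPM in slow frozen tissue, against 8.82 and 3.37 CPM at 36.5 dpp, a log2 fold change of 1.10 ± 0.44 (adjusted p = 0.0356) that became -1.28 (adjusted p = 0.0228) on somatic scaling. The Bnip3 call at D30 was also lost without 36.5 dpp replicate 2 (0.55, adjusted p = 0.362), without D30 fresh replicate 2 (0.93, adjusted p = 0.0808), without the D30 CSF library (0.97, adjusted p = 0.0746) and with DESeq2 (adjusted p = 0.0888). Ndrg1, a stress-responsive gene of cell differentiation, had 71.4, 85.9 and 66.8 CPM at 10.5 dpp and 127.0, 161.6 and 171.6 CPM at D4, a log2 fold change of 1.12 ± 0.19 (adjusted p = 0.000796). The D16 libraries of Ndrg1 nearly coincided at 103.3 and 108.6 CPM, against 22.6, 39.1 and 25.0 CPM at 22.5 dpp, a log2 fold change of 1.74 ± 0.21 (adjusted p = 2.28e-05). At D30 it had 128.3, 110.5 and 115.5 CPM in fresh and 92.6 CPM in slow frozen tissue, against 13.1 and 15.8 CPM at 36.5 dpp, a log2 fold change of 2.31 ± 0.22 (adjusted p = 2.82e-07) that became -0.04 on somatic scaling.

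Ankrd37, an ankyrin repeat gene, was the member that departed from the rest. It had 3.44, 4.17 and 3.78 CPM at 10.5 dpp and 8.96, 7.55 and 6.95 CPM at D4, and the log2 fold change of 1.13 ± 0.38 (adjusted p = 0.0787) was not called. Without 6.5 dpp CSF replicate 3, which is in neither group but enters the estimate of the spread, it was called (adjusted p = 0.00281). At D16 Ankrd37 had 6.34 and 5.77 CPM against 1.51, 2.41 and 2.43 CPM at 22.5 dpp, a log2 fold change of 1.37 ± 0.42 (adjusted p = 0.0249), lost without D16 replicate 1 or 2 or 22.5 dpp replicate 1 or 3 (adjusted p of 0.0506 to 0.108). At D30 the groups overlapped, with 3.91, 4.43 and 3.30 CPM in fresh and 3.11 CPM in slow frozen tissue against 3.74 and 2.96 CPM at 36.5 dpp, a log2 fold change of -0.49 ± 0.40 (adjusted p = 0.282).

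Hif1a, the gene of the oxygen-labile subunit, had 244.8, 202.8 and 190.9 CPM at 10.5 dpp and 341.6, 280.8 and 246.2 CPM at D4, a log2 fold change of 0.53 ± 0.22 (adjusted p = 0.166) that was not called. The lowest D4 library was barely above the highest of 10.5 dpp. At D16 Hif1a had 143.9 and 227.5 CPM against 59.0, 98.0 and 48.2 CPM at 22.5 dpp, a log2 fold change of 1.30 ± 0.24 (adjusted p = 0.00115), and without D16 replicate 2 it was 0.97 (adjusted p = 0.0505). At D30 it had 122.5, 130.8 and 184.9 CPM in fresh and 145.8 CPM in slow frozen tissue, against 24.1 and 18.7 CPM at 36.5 dpp, a log2 fold change of 2.13 ± 0.26 (adjusted p = 2.61e-06) that became -0.28 on somatic scaling. In CPM every D30 library of Hif1a lay below every D4 library.

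**Figure D2:**
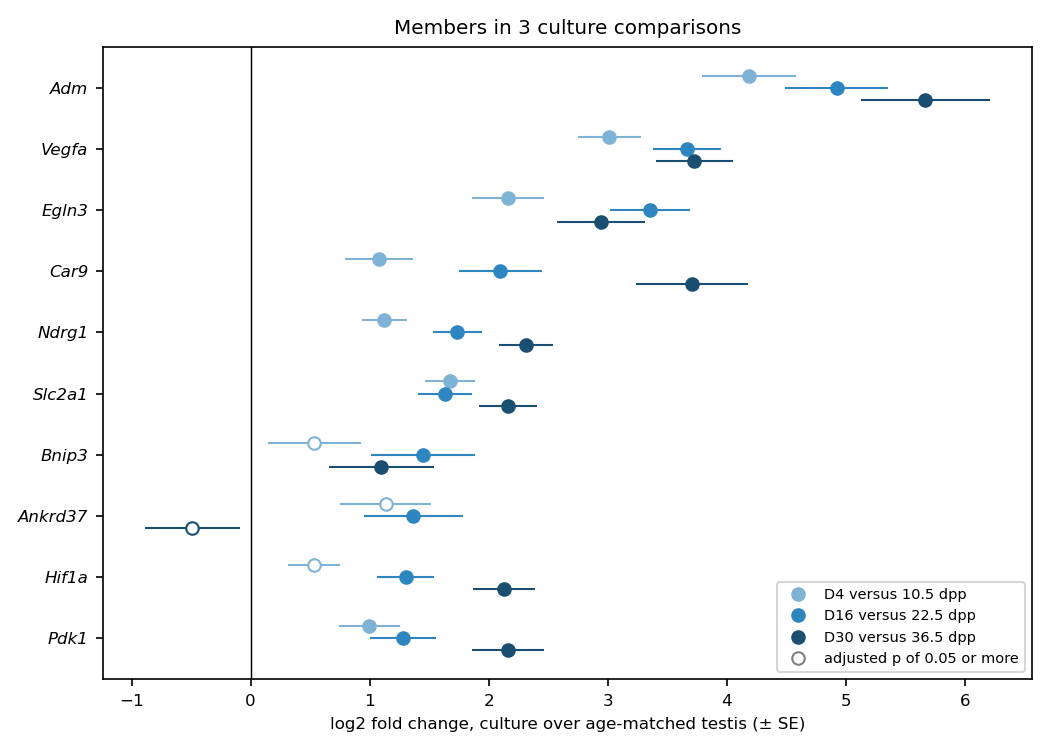
Log2 fold change (± SE) of each member in explants over the age-matched testis at D4, D16 and D30, with open points where the adjusted p was 0.05 or more. Adm lies at 4.19, 4.92 and 5.67 and Vegfa at 3.01, 3.67 and 3.73, and the D30 values of Slc2a1, Bnip3, Ndrg1, Pdk1 and Hif1a fell below 0 on somatic scaling.

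The makeup of the tissue moved with these comparisons. Of 12 general somatic genes, 0 were higher and 1 lower at D4, 9 were higher at D16 and 12 at D30 (median log2 fold change 0.21, 1.28 and 2.43), Vim and Bgn leading and Acta2 being the one lower at D4. Their summed level in culture was 4518 to 4983 CPM on D4, 3300 to 3696 CPM on D16 and 2840 to 4362 CPM on D30. In the testes it was 4167 to 4296 CPM at 10.5 dpp, 1123 to 1790 CPM at 22.5 dpp and 369.1 to 464.8 CPM at 36.5 dpp. Spermatid markers, with Tnp2 and Prm1 leading, summed to 16660 to 21470 CPM at 36.5 dpp against 365.8 to 1676 CPM at D30. These 12 include Sertoli and stromal cell markers, so the lists of those cells share genes with them. In bulk tissue, fewer cells of a type and less RNA per cell cannot be told apart.

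When libraries were scaled on the 12 somatic genes in place of all genes, the median log2 fold change of all genes was -0.03 at D4 but -1.23 at D16 and -2.39 at D30. Of the genes called at D30, 48% were higher in the main scaling, 40% with DESeq2's size factors, 65.8% on library size alone and 1.8% on the somatic scale, and at D16 the shares were 54.3%, 43.9%, 68% and 3.2%. At D4 the same 7 members were called on the somatic scale, with Vegfa at 2.99 ± 0.27 (adjusted p = 1.56e-06) and Adm at 4.17 ± 0.49 (adjusted p = 2.84e-05). At D16 5 members were called, all higher: Adm 3.87 ± 0.52, Vegfa 2.53 ± 0.28, Egln3 2.25 ± 0.43, Car9 0.98 ± 0.38 and Ndrg1 0.62 ± 0.23. Not called were Slc2a1 (0.50, adjusted p = 0.0871), Bnip3 (0.36, adjusted p = 0.564), Ankrd37 (0.24, adjusted p = 0.693), Hif1a (0.16, adjusted p = 0.514) and Pdk1 (0.12, adjusted p = 0.606). At D30 Adm (3.34, adjusted p = 6.78e-05) and Vegfa (1.37, adjusted p = 0.000221) were called higher, as was Car9 with its 4 reads in vivo (adjusted p = 0.0345), while Egln3 had 0.60 ± 0.44 (adjusted p = 0.202). Ankrd37 was lower on this scale at D30, at -2.84 ± 0.49 (adjusted p = 2.98e-05), as was Bnip3. Relative to the median of all genes, the somatic-scale values of Vegfa were 3.76 at D16 and 3.77 at D30, and those of Adm were 5.10 and 5.73. A change of scaling shifts all genes by nearly the same amount, so these values necessarily lie near those of the main scaling. They are no separate check of it.

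**Figure D3:**
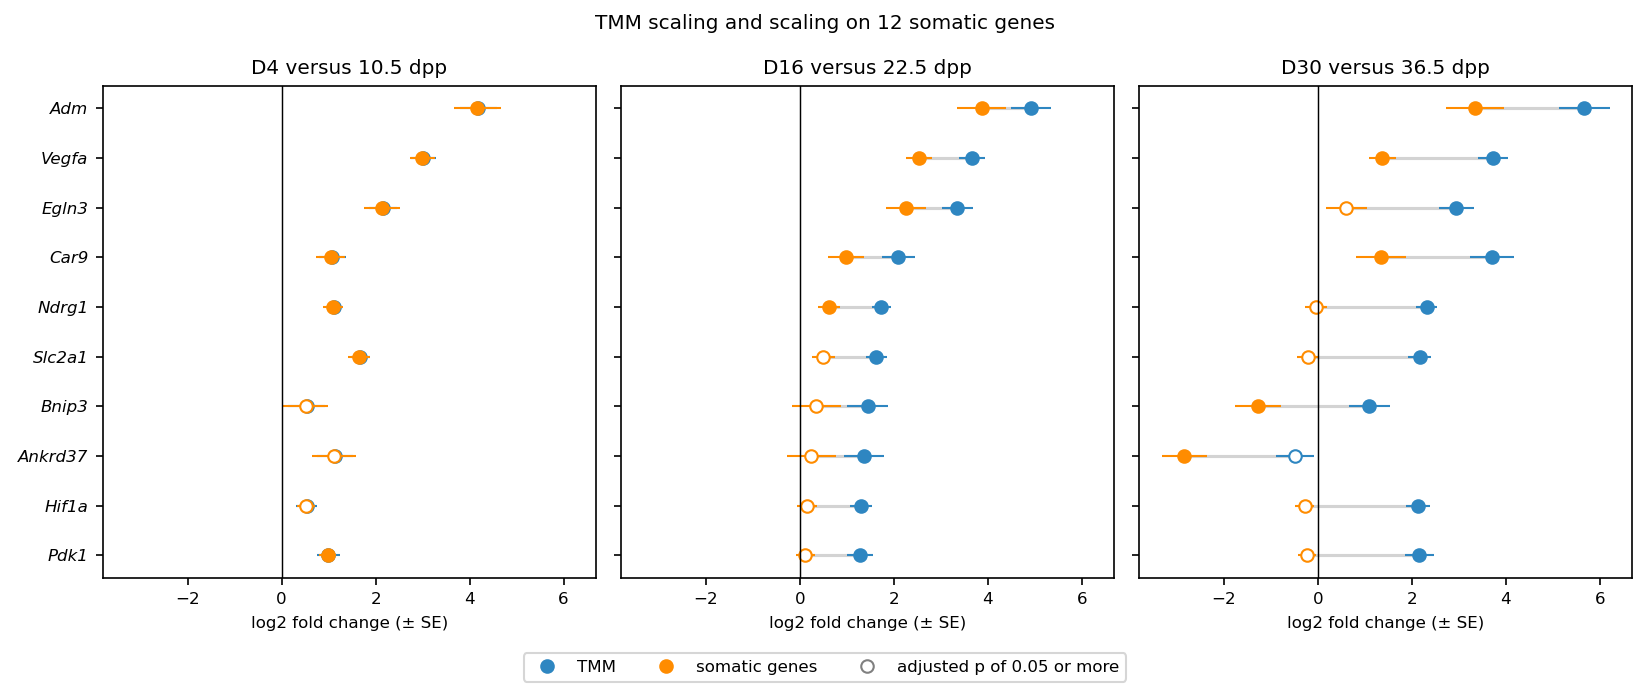
Log2 fold change (± SE) of each member under TMM scaling and under scaling on 12 somatic genes in the 3 culture comparisons, with open points where the adjusted p was 0.05 or more. The scalings nearly coincide at D4, while at D30 Adm (3.34) and Vegfa (1.37) stay above 0 on the somatic scale and Slc2a1, Bnip3, Ndrg1, Pdk1 and Hif1a lie below it.

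Against testis of 6.5 dpp, the age at which the explants were cut, 7 members were higher at D4 and 0 lower. Of all genes 10.8% were called higher and 10.1% lower. Most 6.5 dpp libraries were of slow frozen tissue, while the D4 explants came from fresh tissue, so freezing and culture are mixed here. Vegfa had 31.7 CPM in the fresh and 42.1, 41.3 and 31.5 CPM in the CSF libraries of 6.5 dpp, and was higher at D4 by 3.07 ± 0.24 (adjusted p = 1.04e-07) on the log2 scale. Adm had 2.53 CPM in fresh and 2.56, 2.38 and 5.01 CPM in CSF tissue, and was higher at D4 by 3.62 ± 0.34 (adjusted p = 9.39e-07). Of the other members called, Egln3 was higher by 2.03 ± 0.27, Slc2a1 by 1.32 ± 0.19, Ndrg1 by 1.26 ± 0.17, Car9 by 1.26 ± 0.27 and Pdk1 by 1.23 ± 0.23. With fresh libraries alone, which leave 1 library at 6.5 dpp assumed to vary like the other groups, the calls of Car9 (1.08, adjusted p = 0.142) and Pdk1 (0.77, adjusted p = 0.262) were lost. Hif1a had 0.22 ± 0.20 (adjusted p = 0.474), Ankrd37 0.19 ± 0.35 (adjusted p = 0.76) and Bnip3 0.12 ± 0.37 (adjusted p = 0.862), none of them called. For Bnip3 and Ankrd37 the CSF replicate 3 that stood apart held the highest level, 16.6, 22.1 and 44.7 CPM of Bnip3 and 5.66, 4.36 and 13.3 CPM of Ankrd37 in CSF replicates 1, 2 and 3. Without it Ankrd37 was called at 0.81 ± 0.22 (adjusted p = 0.016) and Bnip3 was not at 0.62 ± 0.30 (adjusted p = 0.18).

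Within culture few members were called. From D4 to D16, 9 members had D16 libraries wholly below those of D4 in CPM, as had 27.8% of all genes, and 1 was called lower, Vegfa at -0.84 ± 0.28 (adjusted p = 0.0368), where 5.48% of all genes were called lower and 18.4% higher. That call was lost on somatic scaling (-0.33, adjusted p = 0.379), without D4 replicate 1 (-0.76, adjusted p = 0.0965), without D4 replicate 2 (-0.81, adjusted p = 0.0864) and without D16 replicate 1 (-0.63, adjusted p = 0.42). Without D16 replicate 2, 2 members were called. From D4 to D16 the log2 fold changes of all 10 members were below 0 in the main scaling, but 7 were above 0 on somatic scaling, where the median of all genes was 0.56. From D16 to D30 edgeR and DESeq2 each called 0 members, where 1.46% of all genes were called higher and 0.332% lower. At an unadjusted p under 0.05 there were 2, Vegfa (-0.73 ± 0.26, adjusted p = 0.198) and Egln3 (-0.83 ± 0.30, adjusted p = 0.218). The share of all genes at an unadjusted p under 0.05 was not counted, here or in the comparisons below. In CPM, 4 members had D30 libraries wholly below D16, Vegfa, Egln3, Ankrd37 and Adm, as had 8.38% of all genes, and none of the 4 was called.

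In vivo, members were called from 10.5 dpp on, and most of these values were below 0 on the TMM scale and above 0 on somatic scaling. Between 6.5 and 10.5 dpp edgeR and DESeq2 each called 0 members, beside 0.675% of all genes higher and 0.467% lower, and 1 had an unadjusted p under 0.05, Ankrd37 (-0.95 ± 0.36). From 10.5 to 22.5 dpp 8 were called lower, beside 27.9% of all genes lower and 33.6% higher, and for all 10 the 22.5 dpp libraries lay wholly below in CPM, as they did for 45.2% of all genes. Car9 fell by 1.81 on the log2 scale and stayed below 0 on somatic scaling (-0.20). The other 7 turned above 0 there: Egln3 from -1.62 to 0.02, Vegfa from -1.49 to 0.13, Hif1a from -1.37 to 0.26, Bnip3 from -1.26 to 0.38, Adm from -1.17 to 0.42, Ndrg1 from -1.10 to 0.53 and Pdk1 from -0.70 to 0.93. The median of all genes moved by more, from 0.06 to 1.71. Adm lost its call without 22.5 dpp replicate 1 or 3 (adjusted p of 0.052 to 0.0634), and Pdk1 without those or 10.5 dpp replicate 2 (adjusted p of 0.0608 to 0.0886).

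From 22.5 to 36.5 dpp 5 members were called lower and Ankrd37 higher, beside 27.5% of all genes lower and 23.3% higher. On library size alone 8 were lower and 0 higher, while with DESeq2, and in edgeR with its size factors, 3 were lower and 1 higher. Pdk1 (-1.16 ± 0.29), Hif1a (-1.15 ± 0.25), Slc2a1 (-0.89 ± 0.24) and Vegfa (-0.79 ± 0.29) were lower but stood at 0.07, 0.12, 0.34 and 0.45 on somatic scaling. Car9 went from 27 reads to 4, a ratio of 0.235 with an exact 95% counting interval of 0.0598 to 0.675. Ankrd37 was higher by 1.18 ± 0.42 (adjusted p = 0.0277), from 1.51, 2.41 and 2.43 CPM to 3.74 and 2.96 CPM, and had 0.66 on library size alone. Without 36.5 dpp replicate 1, Hif1a alone was called (-1.32, adjusted p = 0.00589), and the calls of Vegfa (-0.52, adjusted p = 0.265), Slc2a1 (-0.74, adjusted p = 0.0697), Pdk1 (-0.98, adjusted p = 0.0532), Ankrd37 (1.02, adjusted p = 0.143) and Car9 (adjusted p = 0.134) were lost. Without 22.5 dpp replicate 2, 3 members were called, and Vegfa was not (-0.54, adjusted p = 0.146). The Car9 call was also lost without 22.5 dpp replicate 1 or 2 or 36.5 dpp replicate 2 (adjusted p of 0.0861 to 0.174), and that of Ankrd37 without 22.5 dpp replicate 1 or 2 (adjusted p of 0.0568 to 0.0889).

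Whether the distance between culture and testis itself differed between times was tested as a difference of contrasts. Between D16 and D4 edgeR and DESeq2 each called 0 members, beside 5.26% of all genes with a higher and 4.36% with a lower difference. An unadjusted p under 0.05 was reached by 4: Egln3 (1.19 ± 0.44), Car9 (1.02 ± 0.45), Hif1a (0.77 ± 0.33) and Ndrg1 (0.61 ± 0.28). On somatic scaling these had 0.117, -0.063, -0.362 and -0.475, none of them called. The share of all genes at that unadjusted p was not counted. Between D30 and D4 the culture effect was higher for 4 members and lower for 1, beside 25.8% and 20.7% of all genes. Hif1a (1.59 ± 0.33, adjusted p = 0.000835), Ndrg1 (1.19 ± 0.28, adjusted p = 0.00226) and Pdk1 (1.17 ± 0.37, adjusted p = 0.0169) had a higher effect at D30, which became -0.80, -1.14 and -1.22 on somatic scaling. Car9 had 2.63 ± 0.56 (adjusted p = 0.00115), a fitted value that rests on the 4 reads at 36.5 dpp, and it was 0.30 (adjusted p = 0.697) on somatic scaling. Ankrd37 had -1.62 ± 0.55 (adjusted p = 0.0213), and without 36.5 dpp replicate 1 the calls of Ankrd37 (-1.48, adjusted p = 0.0725) and Pdk1 (0.96, adjusted p = 0.0928) were lost. Vegfa (0.71 ± 0.37, adjusted p = 0.118) and Adm (1.48 ± 0.60, adjusted p = 0.0511) were not called. Without 36.5 dpp replicate 1, which leaves 1 library at that age, Adm had 2.05. On somatic scaling the difference for Vegfa was called lower, at -1.62 (adjusted p = 0.000662). Slc2a1 (-1.86) and Egln3 (-1.535) were also lower on that scale, and Adm had -0.83 (adjusted p = 0.319).

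Slow frozen and fresh tissue could be set side by side but not tested, since 1 side held 1 library. At D30 the CSF library had less Vegfa, Slc2a1, Ndrg1, Egln3 and Ankrd37 than each of the 3 fresh libraries and was inside their range for the other 5, where 23.9% of all genes were lowest in that library, with Vegfa at 67.1 CPM. At 6.5 dpp the fresh library had the lowest Egln3, at 5.30 CPM against 9.23, 6.47 and 10.1 CPM in CSF tissue. It also had the lowest Ankrd37, at 4.07 CPM against 5.66, 4.36 and 13.3 CPM. It had the highest Pdk1, at 115.4 CPM against 77.2, 87.8 and 50.5 CPM, and was inside the CSF range for the remaining members. The share of all genes so placed at 6.5 dpp was not counted.

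Per kilobase of exon (RPKM, mean of the group), Hif1a was the most abundant member at every in vivo age, with 43.0 RPKM at 6.5 dpp. Vegfa had 8.55 RPKM there, rank 6 of the 10, and 70.3 RPKM at D4, rank 1, where Hif1a had 49.1. Adm went from rank 9 with 1.93 RPKM to rank 5 with 23.6, and Car9 was last in each group. In CPM the order of Vegfa was D4, D16, D30, then 10.5 and 6.5 dpp, whose libraries overlapped, then 22.5 and 36.5 dpp.

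The genes whose 7 group means of log2 CPM ran most like those of Vegfa were Egln3 (Pearson r 0.993), Cox4i2 (0.993), Eno2 (0.991), Adm2 (0.989) and Adm (0.986), a description over 7 points from shared libraries. Egln3 was closest to Cox4i2 (0.993), Vegfa and Trpc4, and Adm to Eno2 (0.989), Adm2 and Acsl4. Slc2a1 was closest to Gdf10 (0.989), Efemp1 and Esm1, and Car9 to Elovl1 (0.999), Ldhb and Itm2c. Ndrg1 was closest to Elf1 (0.996) and Sparc, and Pdk1 to Ssc5d (0.996), Slc20a2 and Ero1a. Among the members, r with Vegfa was lowest for Ankrd37 (0.536) and Hif1a (0.807).

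A wider list of 23 known HIF target genes was read the same way. At D4 13 were higher and 0 lower, at D16 16 and 1, and at D30 17 and 1, with medians of 0.82, 0.99 and 1.32. Of all genes, 4.92%, 14% and 32.4% were higher and 3.18%, 11.8% and 35% lower at these times. The same shares apply to every list counted in these 3 comparisons on the TMM scale. On somatic scaling nearly all genes called at D16 and D30 were lower, as given above. Lower calls in a list on that scale are therefore not particular to the list. On somatic scaling the counts of the 23 were 11 and 0, 5 and 4, and 5 and 15, with medians of 0.80, -0.14 and -1.10, where the medians of all genes were -0.03, -1.23 and -2.39. In the main scaling 11 were higher at all 3 times: Bhlhe40, Car12, Ero1a, Igfbp3, Lox, Mxi1, P4ha1, P4ha2, Plod2, Tfrc and Vldlr, which are named after their values were seen. Igfbp3, a binding protein of insulin-like growth factors, was higher by 3.33 ± 0.32, 6.69 ± 0.39 and 6.18 ± 0.44, and by 3.83 at D30 on somatic scaling. Vldlr, a lipoprotein receptor, was higher by 3.13 ± 0.19, 4.84 ± 0.21 and 3.22 ± 0.22, and by 0.84 at D30 on somatic scaling. Pfkfb4, a regulator of glycolytic rate, had 0.48 ± 0.21 (adjusted p = 0.199) at D4 and was lower at D16 (-0.97 ± 0.24) and D30 (-1.04 ± 0.21).

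**Figure D4:**
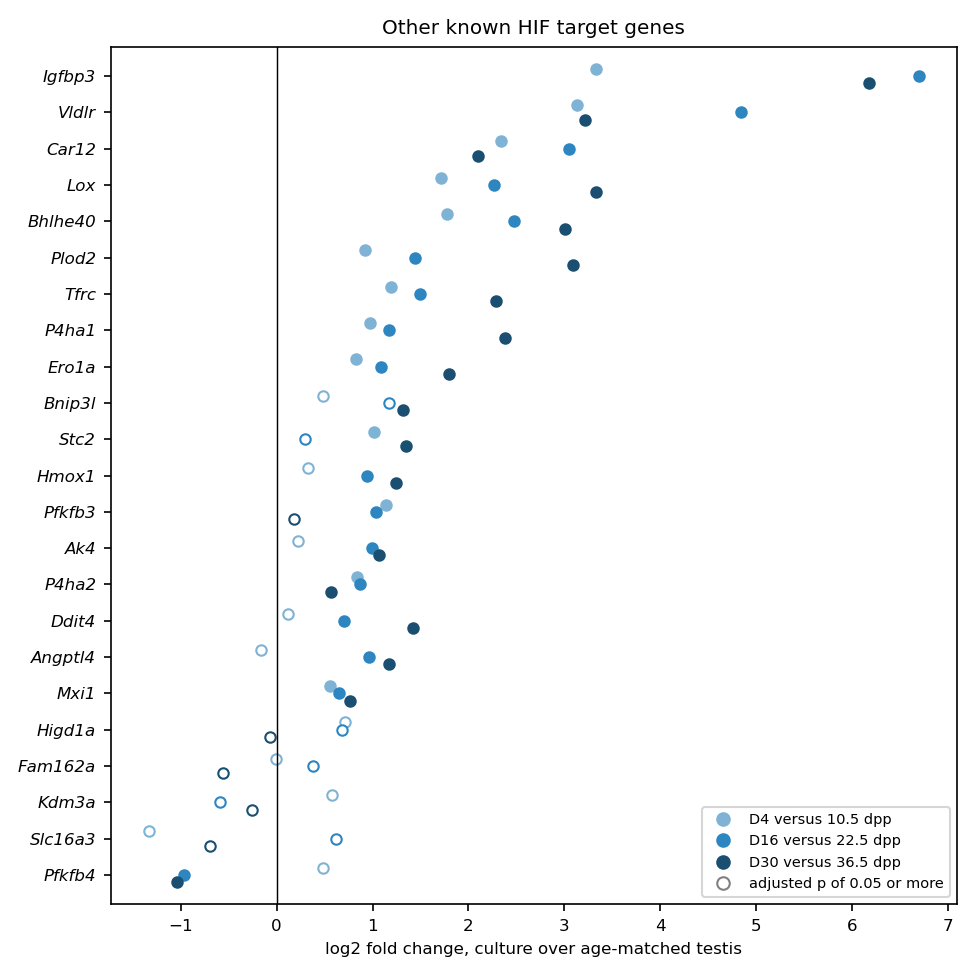
Log2 fold change in explants over the age-matched testis of 23 further HIF target genes at D4, D16 and D30 under TMM scaling, with open points where the adjusted p was 0.05 or more. Igfbp3 (3.33, 6.69 and 6.18) and Vldlr (3.13, 4.84 and 3.22) lie far to the right, Pfkfb4 lies below 0 at D16 and D30, and on somatic scaling the median of the list at D30 was -1.10 against -2.39 for all genes.

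Of 15 HIF subunits and regulators, 1 was higher at D4, 3 were higher and 1 lower at D16, and 7 higher and 4 lower at D30, against 1 higher and 6 lower at D16 and 1 and 11 at D30 on somatic scaling. Among all genes 32.4% were higher and 35% lower at D30 on the TMM scale. Egln1, the main oxygen-sensing hydroxylase, was higher at all 3 times, by 0.80 ± 0.19, 1.95 ± 0.21 and 2.95 ± 0.23, and by 0.54 at D30 on somatic scaling. Its relative Egln2 had 0.12 ± 0.30 (adjusted p = 0.925) at D4 and was lower at D16 (-1.10 ± 0.34) and D30 (-1.95 ± 0.30). Cited2, which competes with HIF for a coactivator, had 0.03 ± 0.23 (adjusted p = 0.997) at D4 and was higher at D16 (1.32 ± 0.25) and at D30 (2.13 ± 0.27, but -0.28 on somatic scaling). Elob, a partner of VHL, was lower at D30 (-1.58 ± 0.29).

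The partners of the secreted members were measured as well. Of 9 other VEGF ligands and receptors, 4 were higher at D4, 5 at D16, and 4 higher and 2 lower at D30, against 1 higher and 3 lower at D16 and 0 and 7 at D30 on somatic scaling. Kdr, the main VEGF receptor of endothelium, was the one higher at all 3 times, by 1.27 ± 0.27, 1.43 ± 0.29 and 1.93 ± 0.31 (at D30 -0.44 on somatic scaling), and is named after its values were seen. Flt4, a receptor of lymphatic endothelium, was higher at D4 (1.75 ± 0.29) and D16 (2.62 ± 0.32) and lower at D30 (-0.81 ± 0.29). Nrp1, a coreceptor, was higher at D16 (0.86 ± 0.27) and D30 (1.77 ± 0.28), with -0.22 and -0.62 on somatic scaling. Vegfd, a ligand, was lower at D30 (-0.92 ± 0.25). Of the 4 genes of the adrenomedullin receptor, 1 was higher at D4, 2 at D16, and 3 higher and 1 lower at D30, against 0 higher and 2 lower at D30 on somatic scaling. Calcrl, the receptor itself, was higher at D16 (0.99 ± 0.33) and D30 (2.38 ± 0.36), with -0.12 and -0.02 on somatic scaling. Its partner Ramp2 was higher at D16 (0.95 ± 0.27) and D30 (1.41 ± 0.29), with -0.13 and -0.94 on somatic scaling, and Ramp3 was higher at D4 (1.26 ± 0.30) and lower at D30 (-1.50 ± 0.31).

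Endothelial markers moved beside these receptors. Of 8, 2 were higher and 1 lower at D4, 7 higher at D16, and 7 higher and 1 lower at D30. On somatic scaling 5 were higher and 1 lower at D16, and 2 higher and 3 lower at D30. Their sum was 212.5 to 300.3 CPM at D4 against 219.6 to 251.7 at 10.5 dpp, 263.2 to 400.1 at D16 against 57.8 to 83.4 at 22.5 dpp, and 172.4 to 243.6 at D30 against 28.8 to 31.4 at 36.5 dpp. Pecam1 had 0.85 ± 0.21, 2.91 ± 0.23 and 3.21 ± 0.26, all called, Cdh5 was higher at D16 (2.51 ± 0.26) and D30 (2.98 ± 0.29), and Tek was lower at D4 (-1.19 ± 0.28) and D30 (-1.49 ± 0.29). Their part in the receptor values was not tested.

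In the main scaling few relatives of the members in their gene families were called before D30. Of 11, 0 were higher and 1 lower at D4, 0 and 3 at D16, and 3 and 7 at D30. On somatic scaling 9 were lower at D16 and 10 at D30, where most of all genes called were lower too. Car4, a carbonic anhydrase like Car9, was lower at all 3 times, with log2 fold changes of -2.92 ± 0.36, -4.82 ± 0.44 and -5.28 ± 0.33. Car2 was lower at D30 (-4.38 ± 0.56). Slc2a4, the insulin-responsive glucose transporter, and Car14 were higher at D30 (1.53 ± 0.33 and 1.47 ± 0.50), with -0.86 and -0.96 on somatic scaling.

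Vegfa is also known to respond to the integrated stress response, whose 7 listed genes gave 4 higher at D4, 5 at D16, and 4 higher and 2 lower at D30. On somatic scaling 2 were higher and 2 lower at D16 and 2 higher and 4 lower at D30, with medians of -0.21 and -0.72 in place of 0.92 and 1.68. Atf3, a stress-induced transcription factor, had 0.92 ± 0.36 (adjusted p = 0.141) at D4 and was higher at D16 (4.16 ± 0.44) and D30 (4.53 ± 0.52, 2.13 on somatic scaling). Sesn2, a stress-induced regulator of growth signalling, was higher at D4 (0.99 ± 0.21) and at D30 (2.18 ± 0.25, but -0.21 on somatic scaling). Asns, which makes asparagine, was higher at D16 (0.92 ± 0.17, but -0.21 on somatic scaling) and lower at D30 (-1.41 ± 0.15), and Ddit3 was lower at D30 (-0.79 ± 0.21). The part of this response in the Vegfa values was not tested.

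Markers of the other cells of the tissue also differed between the groups, and their part in the members' values was not tested. Of 3 red cell transcripts tested, Hba-a1 (-8.04, -9.04 and -7.01) and Hbb-bt were lower at all 3 times. The other 1 was not called at any of them, and at D30 it was lower on somatic scaling and higher on library size alone. The red cell list summed to 16.3 to 17.5 CPM on D4 against 64.5 to 78.1 CPM at 10.5 dpp. At D30 the sum was the larger, 37.4 to 68.3 CPM against 23.7 to 30.5 CPM at 36.5 dpp, although Hba-a1 (-7.01) and Hbb-bt (-7.73) were lower there. Of 7 macrophage markers, 5 were lower at D4 (Csf1r -2.63, Adgre1 -2.49), 1 at D16, and 4 were higher at D30 (Cd68 1.55), and on somatic scaling 7 were lower at D16 and 7 at D30. Of 5 Leydig cell markers, 3, 5 and 5 were lower, among them Cyp17a1 (-4.52, -4.64 and -5.23) and, at D30, Cyp11a1 (-3.04). Their sum was 290.7 to 509.4 CPM on D4 against 988.4 to 1144 CPM at 10.5 dpp, and 316.7 to 571.2 CPM on D30 against 1549 to 1925 CPM at 36.5 dpp, while macrophage markers summed to 33.6 to 39.0 CPM on D4 against 121.3 to 160.4 CPM at 10.5 dpp. Of 7 peritubular and stromal markers, 1 was lower at D4 (Acta2, -0.83), 2 were higher at D16 and 7 at D30 (Bgn 3.08, Pdgfra 2.37), against 5 lower at D16 and 1 higher and 4 lower at D30 on somatic scaling. Of 7 Sertoli cell markers, 1 was higher at D4, 6 were higher and 1 lower (Rhox5) at D16 and 6 were higher at D30, and on somatic scaling 1 was higher and 2 lower at D16 and 0 higher and 2 lower at D30. Of 4 adipocyte markers, Fabp4 was higher at all 3 times (2.12, 3.59 and 1.23, the last -1.13 on somatic scaling), and 1, 2 and 3 were lower, among them Adipoq and Retn at D30 (-4.76 and -2.70).

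On the TMM scale the germ cell markers gave few calls before D30. Of 6 spermatid markers 0, 0 and 6 were lower. Of 5 spermatocyte markers, Spo11 was higher at D4 (1.45), 1 was lower at D16 and 1 at D30 (Piwil1, -1.04). Of 5 spermatogonial markers 0 were called at D4, and 1 was higher and 1 lower at D16 and again at D30, Gfra1 being higher at D16 (1.40), Zbtb16 at D30 (1.38) and Ddx4 lower both times (-0.84 and -1.05). On somatic scaling 2 spermatid, 4 spermatocyte and 3 spermatogonial markers were lower at D16, and 6, 5 and 5 at D30.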

How the data were processed

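Per the labels and the study's methods, the authors sequenced stranded poly(A) libraries as single reads of 50 bases, aligned them with STAR 2.7.3a to GRCm38 and counted reads per gene with HTSeq 0.12.4, and deposited the raw counts of 27466 genes in 23 columns. Whether counting used strand is not given in the sources used here, so overlapping antisense genes cannot be told apart. Counts were tested with edgeR 4.0.16 (quasi-likelihood test, TMM factors, filterByExpr, Benjamini-Hochberg) in R 4.3.3, in 1 fit of 21 libraries and 7 groups with CSF and fresh tissue together. DESeq2 1.42.0 was an alternative, beside other scalings, filters, groupings, a replicate block and each library left out. Log2 fold changes carry the standard error of the fit. On data simulated from these libraries, 82.5%, 76.5% and 77.5% of 200 genes changed 4-fold were recovered in the comparisons at D4, D16 and D30, among 19255 genes each. Apart from those 200, raised or lowered in equal numbers, each simulated gene had 1 mean for all groups. Such data hold no shift in the makeup of the tissue, so these shares say nothing of the choice of scaling. RPKM used GENCODE M21 exon lengths. Totals of 28351546 to 69029328 counts set the precision, and intervals cover counting error only. The members, gene lists and tests were chosen with earlier results of these data known. From each list the genes named are the 2 with the smallest adjusted p in each direction among those called, and others are said to be named after their values were seen. The lists were other HIF targets, HIF subunits and regulators, VEGF and adrenomedullin partners, family relatives, stress response, general somatic genes and markers of endothelial, red, macrophage, Sertoli, Leydig, peritubular, adipocyte and germ cells; 1 red cell gene found no row, and some genes are not reported here.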

Additional observations from a re-analysis of the deposited data

Results flagged for a closer look

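Adm in CSF replicate 3 of the 6.5 dpp testis, at 5.01 CPM, lay far from the other 3 libraries of its group (2.53 CPM in fresh tissue and 2.56, 2.38 and 5.01 CPM in CSF replicates 1, 2 and 3). It was the 1 outlying value among 20 groups of 4 libraries examined over the members, where chance gives about 1 in 20.

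The culture effect at D30 differed from that at D4 for 5 members in the test of the difference itself: Car9 by 2.63, Hif1a by 1.59, Ndrg1 by 1.19, Pdk1 by 1.17 and Ankrd37 by -1.62 on the log2 scale. On somatic scaling Hif1a, Ndrg1 and Pdk1 turned to -0.80, -1.14 and -1.22, Car9 had 0.30 and Ankrd37 -3.95.

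The 6.5 dpp fresh library left out of the comparisons lay above the other 4 libraries of 6.5 dpp for 6 members, as it did for 37.1% of all genes. It had 151.3 CPM of Vegfa (others 31.5 to 42.1), 17.9 CPM of Adm (2.38 to 5.01), 19.1 CPM of Egln3 (5.30 to 10.1), 62.0 CPM of Slc2a1 (40.6 to 51.5), 88.9 CPM of Ndrg1 (56.9 to 77.0) and 122.5 CPM of Pdk1 (50.5 to 115.4). Bnip3 (10.8 CPM) and Hif1a (151.9 CPM) lay below the others, as did 33.9% of all genes, and Car9 (0.683 CPM) and Ankrd37 (4.08 CPM) within their range.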

How the results depend on the processing

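Of 53 member results called, 36 kept their call without any 1 library and 17 lost it without some library. With a stricter threshold, a log2 fold change of 2 or more in size with an adjusted p no higher than 0.001, the members called were 3 in place of 7 at D4 against 10.5 dpp, 4 of 10 at D16, 3 of 7 at D4 against 6.5 dpp, 0 of 1 from D4 to D16, 0 of 8 from 10.5 to 22.5 dpp, 0 of 6 from 22.5 to 36.5 dpp and 0 of 5 for the difference between D30 and D4. On somatic scaling they were 5 at D16, 5 at D30 (3 higher and 2 lower, against 9), 0 from D4 to D16, 4 from 10.5 to 22.5 dpp and 3 from 22.5 to 36.5 dpp (all higher), 2 for the difference between D16 and D4 and 8 for that between D30 and D4 (all lower). On library size alone these differences gave 1 and 8. On the somatic scale the median of all genes moved the same way in both in vivo steps and both differences, so those counts are not particular to the members. Relative to that median every member was below 0 from 10.5 to 22.5 dpp (-1.91 for Car9 to -0.53 for Slc2a1). For the difference between D30 and D4 all but Ankrd37 were above it. With fresh libraries only the difference between D16 and D4 gave 1, and with only the groups compared it gave 2, while 22.5 to 36.5 dpp gave 3. With 6.5 dpp fresh replicate 1 kept, D4 to D16 gave 0. Over all comparisons 9 of the 53 calls were lost with that library kept and 44 stayed the same.

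Leaving out each library in turn gave 5 to 8 members at D4, 6 to 10 at D16, 8 to 9 at D30, 7 to 8 at D4 against 6.5 dpp, 0 to 2 from D4 to D16, 6 to 9 from 10.5 to 22.5 dpp, 1 to 7 from 22.5 to 36.5 dpp, 0 to 1 for the difference between D16 and D4 and 4 to 6 for that between D30 and D4. The 6 at D16 came without D16 replicate 2, and the 1 without 36.5 dpp replicate 1.

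Reversed on somatic scaling were, at D30, Slc2a1 (-0.21), Bnip3 (-1.28), Ndrg1 (-0.041), Pdk1 (-0.24) and Hif1a (-0.28). From 10.5 to 22.5 dpp they were Vegfa (0.13), Bnip3 (0.38), Ndrg1 (0.53), Egln3 (0.02), Adm (0.42), Pdk1 (0.93) and Hif1a (0.26). From 22.5 to 36.5 dpp they were Vegfa (0.45), Slc2a1 (0.34), Pdk1 (0.074) and Hif1a (0.12), and for the difference between D30 and D4 Ndrg1 (-1.14), Pdk1 (-1.22) and Hif1a (-0.80). No other setting reversed a call, and the cause was not tested.

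The replicate numbers were not taken to pair the libraries. Deviations of same-numbered libraries correlated at 0.203, 0.027 and -0.008 in the 3 pairs at D4, at 0.525 and 0.661 in the 2 pairs at D16 and at -0.345 and -0.325 in the 2 pairs at D30. Those at D16 and 1 at D4 were above 0.1, the least correlation set for pairing, and those at D30 were below 0. D16 and 36.5 dpp held 2 libraries each, whose deviations mirror each other, so the 2 pairs at D16 or at D30 are not separate checks. With the replicate block 51 of the 53 calls were the same, and Bnip3 at D30 had 1.09 (adjusted p = 0.0502) and Car9 from 22.5 to 36.5 dpp -1.45 (adjusted p = 0.0563), both lost.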
